A study of Mus musculus with 12 samples.

Results

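The neutrophil genes described here are 10 genes chosen by name: S100a8, S100a9, Csf3r, Retnlg, Ngp, Camp, Ltf, Mmp8, Cxcr2 and Trem1. These genes and all gene lists below were chosen with earlier results of these data known. Their shares set against all genes are therefore descriptions and not independent tests. They are 10 of the 43346 genes in the deposited table, and 8 of them were among the 18965 genes that passed the filter on low counts, while Ngp and Camp did not. RNA was sequenced from 6 AVF-CKD libraries, taken from the venous limb of the AVF, and from 6 sham libraries, taken from the jugular vein, all collected 7 days after surgery in mice. The letters AVF and CKD are not spelled out in the labels and are read here as arteriovenous fistula, a surgical join of an artery to a vein, and chronic kidney disease. Vessel, surgery and kidney disease therefore cannot be told apart, and the labels say neither whether sham mice had kidney disease nor the strain, sex or age of any mouse. Nothing in the labels says that each library came from its own mouse, so a p-value here is set against the spread of these 12 samples, which may be technical in part. Libraries are called by the group and number of their titles.

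Neutrophils are short-lived white blood cells that are made in the bone marrow, circulate in blood and enter inflamed tissue within hours. They fill their granules in steps: myeloperoxidase and elastase are made by promyelocytes, and lactoferrin, cathelicidin and the neutrophilic granule protein by cells of later marrow stages, so that a mature neutrophil holds these proteins but little of their RNA. Mature cells keep making the cytoplasmic proteins S100A8 and S100A9 and the receptors through which they sense growth factors and chemokines. In a vein that has been cut and joined to an artery, neutrophils may lie in the wall, in clot or in the blood that remains in the vessel, and bulk RNA does not separate these places.

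The genes for S100A8 and S100A9 lie close to each other on mouse chromosome 3, and Camp, Ngp and Ltf lie on chromosome 9. Their promoters are shown because the first pair followed each other from library to library while the granule genes were highest in other libraries. The sequences are the 250 bases before each gene's RefSeq start on GRCm38.p6, 5′ to 3′ on the gene's own strand. They lie at chr3:90668821-90669070 on the plus strand (S100a8), chr3:90695722-90695971 on the minus strand (S100a9), chr9:110419558-110419807 on the plus strand (Ngp), chr9:109849457-109849706 on the minus strand (Camp) and chr9:111019042-111019291 on the plus strand (Ltf). Capitals mark matches, on either strand, to TTNNGNAA, a short form of the site of C/EBP factors, which drive granule gene expression in myeloid cells, and to the TATA box letters TATAAA.
S100a8: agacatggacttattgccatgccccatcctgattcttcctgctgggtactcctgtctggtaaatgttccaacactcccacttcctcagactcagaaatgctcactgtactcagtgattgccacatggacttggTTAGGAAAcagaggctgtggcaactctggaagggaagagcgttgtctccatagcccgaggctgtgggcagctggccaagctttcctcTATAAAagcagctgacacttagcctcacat
S100a9: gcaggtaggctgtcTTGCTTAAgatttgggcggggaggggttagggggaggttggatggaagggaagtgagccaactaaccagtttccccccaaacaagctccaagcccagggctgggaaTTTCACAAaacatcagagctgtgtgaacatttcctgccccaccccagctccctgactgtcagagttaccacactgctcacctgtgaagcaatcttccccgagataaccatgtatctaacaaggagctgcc
Ngp: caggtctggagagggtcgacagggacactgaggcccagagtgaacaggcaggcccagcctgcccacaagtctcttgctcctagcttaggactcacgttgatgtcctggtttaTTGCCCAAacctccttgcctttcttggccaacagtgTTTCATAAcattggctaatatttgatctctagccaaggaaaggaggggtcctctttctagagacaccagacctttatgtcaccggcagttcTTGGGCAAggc
Camp: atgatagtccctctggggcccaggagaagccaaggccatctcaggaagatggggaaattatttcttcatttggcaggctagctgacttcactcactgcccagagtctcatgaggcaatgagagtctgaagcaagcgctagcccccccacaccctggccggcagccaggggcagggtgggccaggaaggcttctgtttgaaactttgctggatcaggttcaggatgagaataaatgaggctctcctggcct
Ltf: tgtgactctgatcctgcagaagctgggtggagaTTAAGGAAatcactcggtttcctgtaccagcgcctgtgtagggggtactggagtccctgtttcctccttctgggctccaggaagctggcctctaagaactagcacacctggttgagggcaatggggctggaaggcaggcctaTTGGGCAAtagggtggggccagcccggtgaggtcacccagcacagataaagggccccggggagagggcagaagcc
The C/EBP letters occurred 3 times in the Ngp window, 2 times each in those of S100a9 and Ltf, 1 time in that of S100a8 and 0 times in that of Camp. Over the 10 members, 7 windows held them, against 36.85% of 32851 RefSeq promoter windows of the same length. The TATA box letters, 30 bases before the start, were in the S100a8 window alone of the 10, against 12.37% of all windows. GAGGAA, the core letters of PU.1 sites, were found in 6 of the 10 windows (23.25% of all), and TGTGGT, the core letters of RUNX sites, in 1 of the 10 (14.05% of all). Matches this short describe letters and not binding.

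Library totals ran from 38.65 to 60.14 M counts (M, 1000000 counts). Levels are given as CPM, counts per 1000000 of the TMM-scaled library total, and comparisons between genes use RPKM, which also divides by gene length. Dbp, a clock-controlled gene, set 4 libraries apart: it was at 7.65 CPM in AVF-CKD 6 and 6.15 to 21.4 CPM in sham 4, sham 5 and sham 6, against 77.7 to 107 CPM in the other 8 libraries. Each member's fold change is therefore also given without these libraries. That setting leaves AVF-CKD 1 to 5 against sham 1, sham 2 and sham 3. Sham 1, the lowest library for 5 members, has more weight there than among all sham libraries. As a check of the name, Ly6g, the defining surface marker of mouse neutrophils, was low, at 0.0641 to 0.381 CPM in AVF-CKD and 0.0767 to 0.394 CPM in sham, and it was named for this check after its values were seen. Ly6g belongs to a family of similar genes, and how reads shared with them were counted is not given in the sources used here, so its level is uncertain. Of the 7 genes of early granule precursors, Ms4a3 was at 0 in all 12 libraries, and the summed level was 2.76 to 4.99 CPM in AVF-CKD and 2.21 to 3.87 CPM in sham. Csf3r, S100a8, S100a9 and Trem1 are also used by monocytes and macrophages, whose 16 markers summed to 7415 to 13380 CPM in AVF-CKD and 6723 to 13880 CPM in sham. The part of those cells in the values below was not tested. In bulk samples, fewer cells of a type and less RNA per cell cannot be told apart.

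Per length, S100a9 was the most abundant member, at 148 ± 74.5 RPKM in AVF-CKD and 139 ± 54.8 RPKM in sham (SD, n = 6 each). S100a8 followed at 133 ± 62 RPKM in AVF-CKD and 114 ± 44.1 RPKM in sham, within the spread of S100a9. Csf3r came next at 22.3 ± 6.1 RPKM in AVF-CKD and 16.2 ± 3.05 RPKM in sham, below both and above Retnlg, at 7.67 ± 2.04 RPKM in AVF-CKD and 10.3 ± 3.26 RPKM in sham. Cxcr2 and Trem1 lay close to each other in both groups, at 3.74 ± 1.55 and 3.56 ± 2.13 RPKM in AVF-CKD and at 2.72 ± 1.08 and 1.83 ± 0.858 RPKM in sham. Mmp8 averaged 1.29 ± 0.576 RPKM in AVF-CKD and 0.892 ± 0.356 RPKM in sham. Camp, Ngp and Ltf were the lowest, with means of 0.487, 0.424 and 0.355 RPKM in AVF-CKD and 0.198, 0.108 and 0.161 RPKM in sham, with ranges that overlapped between these 3 genes in both groups.

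No member passed the test between the groups. The quasi-likelihood test of edgeR called 0 of the 8 tested members at an adjusted p below 0.05, as it called 0% of all 18965 tested genes, and DESeq2 also called 0 of the 8, against 0.559% of all genes, as did limma voom, against 0% of all genes. The log2 fold change of AVF-CKD over sham was above 0 in 7 of the 8, against 49.1% of all tested genes, with a median of 0.46 over the 8 and -0.0025 over all genes. At an unadjusted p below 0.05, 2 of the 8 were higher (Csf3r and Trem1), against 5.26% of all genes, and 0 were lower, against 4.08%. In no member did the 6 AVF-CKD libraries lie wholly apart from the 6 sham libraries, as they did for 0.638% of all genes.

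**Figure D1:**
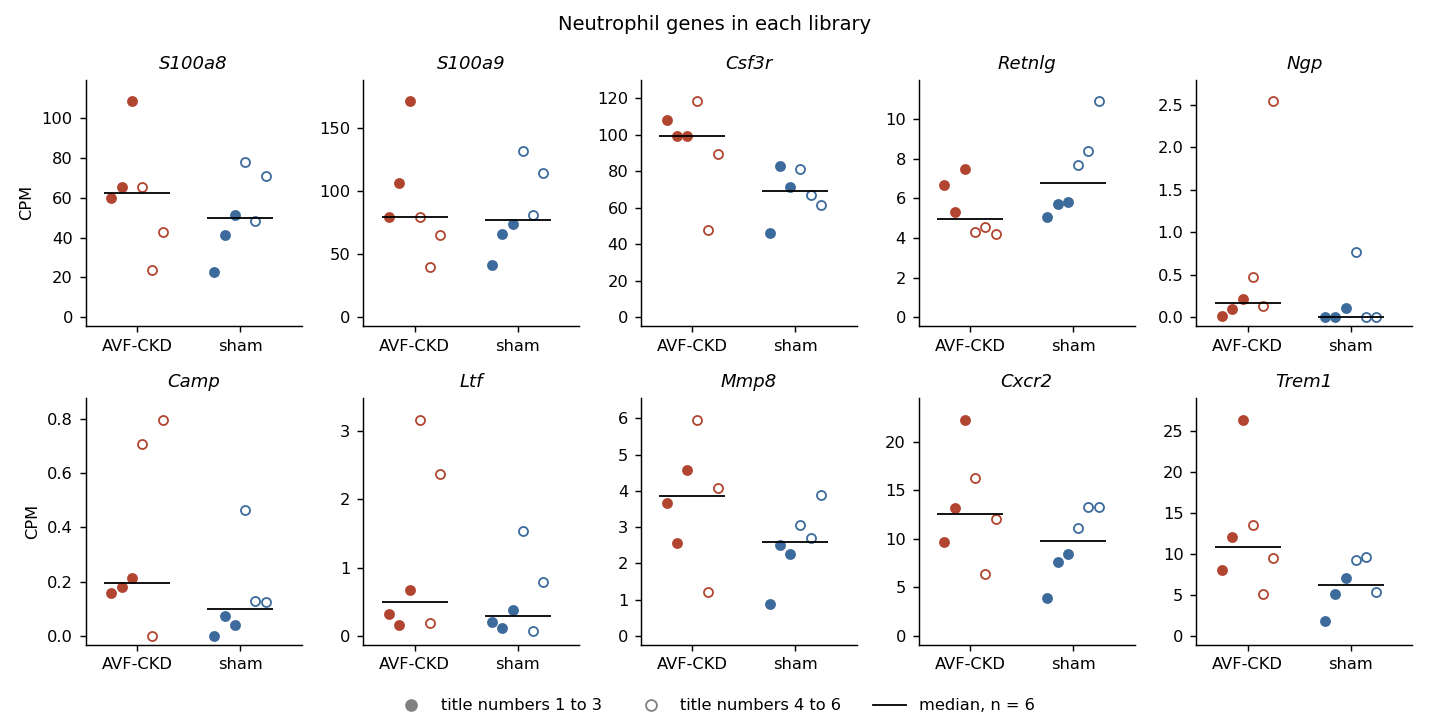
Level of each of the 10 neutrophil genes in CPM (vertical axes, from 0), with 1 point per library, AVF-CKD left and sham right in each panel; filled points are title numbers 1 to 3, open points 4 to 6, and the line is the group median. In every panel the 2 groups overlap; for Csf3r, 5 of the 6 AVF-CKD libraries lie above the highest sham library.

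S100a8 (ENSMUSG00000056054, chromosome 3, 90669071 to 90670034) and S100a9 (ENSMUSG00000056071, chromosome 3, 90692632 to 90695721) encode the 2 chains of calprotectin, a calcium- and zinc-binding complex that fills the neutrophil cytoplasm and is released as an alarm signal. S100a8 had a lowest, median and highest level of 24, 62.5 and 108 CPM in AVF-CKD and of 22.9, 49.8 and 77.9 CPM in sham. The highest library was AVF-CKD 3, the second was sham 4, and the 2 lowest were sham 1 and AVF-CKD 5, so the groups overlapped over most of their range. Its log2 fold change was 0.23 ± 0.33 (SE; 95% interval -0.49 to 0.95; edgeR adjusted p = 0.866). S100a9 had 39.8, 79.7 and 171 CPM in AVF-CKD and 41.4, 77.4 and 132 CPM in sham. The same 4 libraries stood at its ends, and its log2 fold change was 0.09 ± 0.33 (interval -0.62 to 0.80; edgeR adjusted p = 0.953). The direction of both rested on single libraries: without AVF-CKD 3 the values were -0.014 for S100a8 and -0.19 for S100a9, and without sham 1 that of S100a9 was -0.05. Without the 4 low-Dbp libraries they were 0.75 and 0.66 (edgeR adjusted p = 0.647 and 0.665).

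Csf3r (ENSMUSG00000028859, chromosome 4, 126024550 to 126044440) encodes the receptor for G-CSF, the growth factor that drives neutrophil production and survival. It had a lowest, median and highest level of 47.6, 99.3 and 118 CPM in AVF-CKD and of 46.1, 69.1 and 82.8 CPM in sham. Of the AVF-CKD libraries, 5 lay above the highest sham library, and AVF-CKD 5 lay with sham 1 at the bottom. The log2 fold change was 0.46 ± 0.20 (interval 0.03 to 0.88; unadjusted p = 0.036, edgeR adjusted p = 0.503), stayed between 0.36 and 0.59 when each library was left out in turn, and was 0.50 without the 4 low-Dbp libraries. Csf3, which encodes G-CSF itself, was named after its values were seen. It was low, at 0.068, 0.531 and 2.48 CPM in AVF-CKD and 0.0335, 0.215 and 0.477 CPM in sham. In Csf3, 4 AVF-CKD libraries lay above the highest sham library (log2 fold change 1.97 ± 0.72, edgeR adjusted p = 0.479).

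Cxcr2 (ENSMUSG00000026180, chromosome 1, 74153989 to 74161246) encodes the receptor by which neutrophils follow the chemokines CXCL1, CXCL2, CXCL3, CXCL5 and PPBP. It had 6.37, 12.6 and 22.3 CPM in AVF-CKD and 3.92, 9.79 and 13.3 CPM in sham. AVF-CKD 3 and AVF-CKD 4 were above every sham library, while the other 4 AVF-CKD libraries lay within the sham range. The log2 fold change was 0.47 ± 0.32 (interval -0.22 to 1.15; edgeR adjusted p = 0.686), and 1.03 without the 4 low-Dbp libraries (edgeR adjusted p = 0.563). Of 5 of its ligands, named because they bind this receptor and added after values were seen, 3 had a higher and 2 a lower mean in AVF-CKD. Cxcl5 averaged 73.8 ± 25.3 CPM in AVF-CKD and 33.5 ± 14.6 CPM in sham (log2 fold change 1.14 ± 0.34, edgeR adjusted p = 0.401), with 5 of 6 AVF-CKD libraries above the highest sham library. Cxcl3 averaged 34.3 ± 22.6 CPM in AVF-CKD and 16.9 ± 10.2 CPM in sham, and Cxcl2 45 ± 26.7 CPM in AVF-CKD and 26.9 ± 10.8 CPM in sham. Cxcl1 averaged 20.7 ± 5.98 CPM in AVF-CKD and 24.9 ± 15.9 CPM in sham, and Ppbp, which platelets also store, 46.8 ± 15.2 CPM in AVF-CKD and 65.6 ± 41.9 CPM in sham. None of these ligands passed the test.

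Trem1 (ENSMUSG00000042265, chromosome 17, 48232768 to 48246924) encodes a receptor of neutrophils and monocytes that amplifies inflammatory signalling. Its levels were 5.08, 10.8 and 26.4 CPM in AVF-CKD and 1.76, 6.21 and 9.68 CPM in sham, with 3 AVF-CKD libraries above the highest sham library. AVF-CKD 3 stood highest, followed by AVF-CKD 4 at 13.6 CPM and AVF-CKD 2 at 12.1 CPM, and sham 1 was lowest. The log2 fold change was 0.97 ± 0.42 (interval 0.07 to 1.87; unadjusted p = 0.0369, edgeR adjusted p = 0.503). It was 0.60 without AVF-CKD 3, which was the smallest value with any library left out, and 1.49 without the 4 low-Dbp libraries (edgeR adjusted p = 0.559).

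Retnlg (ENSMUSG00000022651, chromosome 16, 48872608 to 48874498) encodes resistin-like gamma, a secreted protein of mature mouse neutrophils in blood and marrow. It was the single tested member with a lower mean in AVF-CKD, with 4.21, 4.94 and 7.49 CPM in AVF-CKD and 5.06, 6.76 and 10.9 CPM in sham. The highest libraries were sham 6 and sham 5 and the lowest AVF-CKD 6 and AVF-CKD 4, so that its order of libraries differed from that of the other members. The log2 fold change was -0.42 ± 0.21 (interval -0.87 to 0.04; edgeR adjusted p = 0.559), and it was 0.04 without the 4 low-Dbp libraries, among which are sham 5, sham 6 and AVF-CKD 6.

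The granule genes were low. Mmp8 (ENSMUSG00000005800, chromosome 9, 7558429 to 7568486), neutrophil collagenase, had 1.2, 3.87 and 5.96 CPM in AVF-CKD and 0.871, 2.6 and 3.88 CPM in sham. AVF-CKD 4, AVF-CKD 3 and AVF-CKD 6 were above the highest sham library, and sham 1 and AVF-CKD 5 were again lowest; the log2 fold change was 0.53 ± 0.37 (interval -0.26 to 1.33; edgeR adjusted p = 0.691), and 0.93 without the 4 low-Dbp libraries. Ltf (ENSMUSG00000032496, chromosome 9, 111019292 to 111042766), lactoferrin, an iron-binding protein of the specific granules, had 0.155, 0.496 and 3.16 CPM in AVF-CKD and 0.065, 0.292 and 1.53 CPM in sham. Of its 477 counts, 148 came from AVF-CKD 4 and 122 from AVF-CKD 6, and 66 of the sham counts came from sham 4. The log2 fold change of Ltf was 1.18 ± 0.85 (interval -0.66 to 3.03; edgeR adjusted p = 0.702), 0.57 without AVF-CKD 4, 1.89 without sham 4 and 1.96 without the 4 low-Dbp libraries. Epithelia also make lactoferrin. The 17 gland epithelium markers summed to 18.2 to 29.9 CPM in AVF-CKD, highest in AVF-CKD 4, and to 23.8 to 98.6 CPM in sham, highest in sham 6 and next in sham 4 (35.3 CPM), while Ltf was highest in AVF-CKD 4 and, among sham libraries, in sham 4 and then sham 6. The part of epithelial cells in Ltf was not tested.

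Ngp (ENSMUSG00000032484, chromosome 9, 110419808 to 110423010), the neutrophilic granule protein, and Camp (ENSMUSG00000038357, chromosome 9, 109847377 to 109849456), cathelicidin, an antimicrobial peptide precursor, had 213 and 137 counts over all 12 libraries. Ngp had 1, 4, 10, 22, 6 and 131 counts in AVF-CKD 1 to 6, and 6 and 33 counts in sham 3 and sham 4. The other 4 sham libraries held 0 counts, which allows up to 0.0503 to 0.0651 CPM at 3 counts per library, a limit for counting error only. More than any other library, AVF-CKD 6 carried this gene, with 2.54 CPM against 0.76 CPM in sham 4, the next. Camp had 8, 7, 10, 33, 0 and 41 counts in AVF-CKD 1 to 6, and 0, 4, 2, 20, 6 and 6 counts in sham 1 to 6. AVF-CKD 6, AVF-CKD 4 and sham 4 were its highest libraries too, at 0.796, 0.705 and 0.463 CPM. With no filter on low counts the log2 fold changes were 2.07 ± 1.20 for Ngp (interval -0.49 to 4.62) and 1.36 ± 0.84 for Camp (interval -0.45 to 3.16), and neither passed the test. Without the 4 low-Dbp libraries, a setting added after the values were seen, they were 2.27 ± 1.17 for Ngp and 2.70 ± 1.16 for Camp (edgeR adjusted p = 0.736 for each). Single libraries moved them: Ngp was at 0.42 without AVF-CKD 6 and 4.52 without sham 4, and Camp at 0.91 without AVF-CKD 6 and 2.23 without sham 4, with edgeR adjusted p no lower than 0.620 when any library was left out.

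The ratio of these granule RNAs to calprotectin RNA, a measure that does not depend on library scaling, differed between libraries of the same group. Ngp, Camp and Ltf together held 29.9 counts per 1000 S100a8 and S100a9 counts in AVF-CKD 4 and 52.8 in AVF-CKD 6, against 2.56 to 4.98 in the other 4 AVF-CKD libraries. In sham the ratio was 13.1 in sham 4 and 1.51 to 4.94 in the other 5. AVF-CKD 3, the highest library for calprotectin, had a ratio of 3.94. S100a9 counts were 1.22 to 1.66 times S100a8 counts in AVF-CKD and 1.44 to 1.80 times in sham, a narrow range in both groups.

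**Figure D2:**
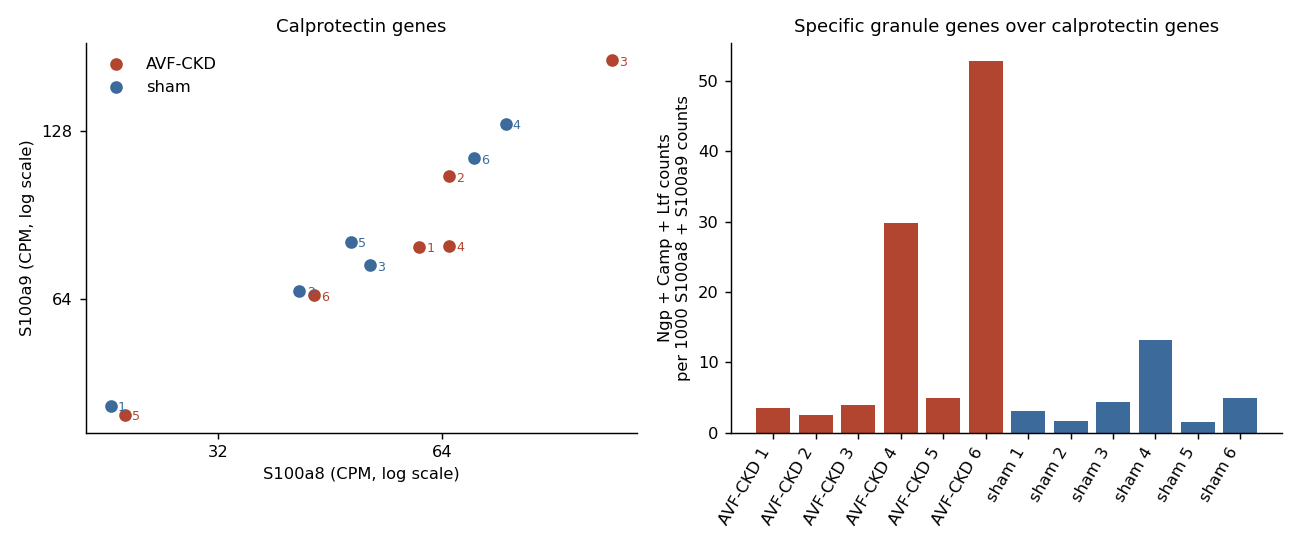
Left, S100a9 against S100a8 in CPM on log axes, with 1 point per library and its title number beside it; right, Ngp, Camp and Ltf counts per 1000 S100a8 and S100a9 counts, with 1 bar per library from 0, AVF-CKD before sham. The points of both groups lie along 1 line, and the tallest bars are AVF-CKD 6 (52.8), AVF-CKD 4 (29.9) and sham 4 (13.1).

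Across the 12 libraries the members fell into patterns that crossed the groups. Correlations were computed on log2 CPM for all 45 pairs, with permutation p-values adjusted over the 45, and 22 pairs had an adjusted p below 0.05 for Pearson's r. S100a8 and S100a9 gave r = 0.97 (permutation p = 1e-05, the smallest that 100000 resamples can give; adjusted p = 0.00045) and Spearman's rho = 0.93 (p = 7e-05, adjusted p = 0.00315). Their r was 0.94 without sham 1 and AVF-CKD 5, the 2 libraries farthest from the median, 0.97 within AVF-CKD and 0.99 within sham. Cxcr2 and Trem1 gave r = 0.92 (permutation p = 8e-05, adjusted p = 0.0018) and rho = 0.85 (p = 0.00102, adjusted p = 0.0115), with r = 0.75 without sham 1 and AVF-CKD 3, 0.98 within AVF-CKD and 0.87 within sham. Among the 6 genes S100a8, S100a9, Csf3r, Mmp8, Cxcr2 and Trem1, the 15 pairs had r from 0.58 to 0.97, and 14 had an adjusted p below 0.05. Several of these rested on the 2 lowest libraries: without sham 1 and AVF-CKD 5, r of S100a8 with Csf3r was 0.25 in place of 0.72, and that of S100a8 with Mmp8 was 0.44 in place of 0.82.

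The granule genes Ngp, Camp and Ltf correlated among themselves, with r from 0.70 to 0.78 in 3 of 3 pairs with an adjusted p below 0.05. Ngp with Ltf had r = 0.78 (permutation p = 0.00313, adjusted p = 0.0117) and rho = 0.70 (p = 0.014, adjusted p = 0.048), and r = 0.64 without AVF-CKD 6 and sham 4, while r of Ngp with Camp was 0.70 with and 0.45 without these 2 libraries. Of the 18 pairs between these 3 and the 6 genes, 5 had an adjusted p below 0.05, 4 of them with Camp and Csf3r, Mmp8, Cxcr2 or Trem1 and 1 with Camp and S100a8. The last rested on 2 libraries, with r = 0.65 over all 12 and 0.18 without sham 1 and AVF-CKD 5. Camp had r = 0.85 with Mmp8, itself a granule gene, and 0.83 without AVF-CKD 6 and AVF-CKD 5. Its r was 0.78 with Csf3r (0.51 without sham 1 and AVF-CKD 5), 0.73 with Cxcr2 and 0.68 with Trem1, against 0.70 with Ngp and 0.75 with Ltf. Camp was thus not set apart from the 6 genes. S100a8 with Ngp had r = 0.24 (permutation p = 0.461, adjusted p = 0.522) and rho = 0.35 (p = 0.27, adjusted p = 0.347). Retnlg with the 6 genes had r from -0.083 to 0.62, and 0 of 6 pairs had an adjusted p below 0.05 for Pearson's r. For Retnlg with S100a9, rho was 0.69 (permutation p = 0.0149, adjusted p = 0.048), and r was 0.71 within AVF-CKD and 0.79 within sham. Over the 6 genes, r with Retnlg ran from 0.17 to 0.71 within AVF-CKD and from 0.15 to 0.87 within sham. Within sham alone the r of Retnlg with Cxcr2 was 0.87, and within AVF-CKD alone 0.38.

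**Figure D3:**
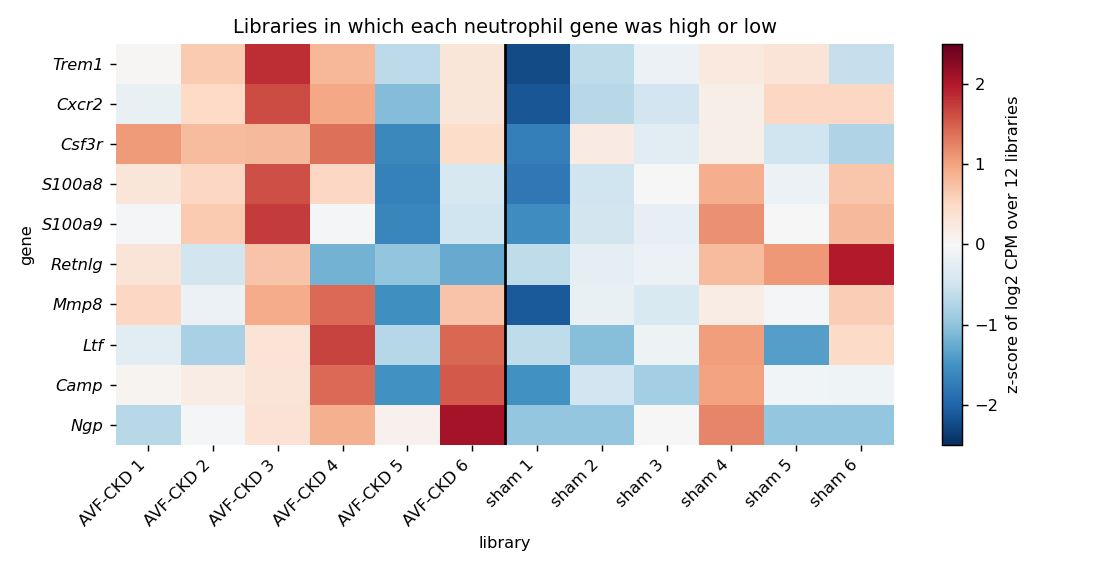
Level of each of the 10 genes (rows) in each of the 12 libraries (columns, AVF-CKD left of the line and sham right), as the number of SDs from the gene's mean log2 CPM over the libraries. Sham 1 and AVF-CKD 5 are low for most genes, AVF-CKD 3 is high for S100a8, S100a9, Cxcr2 and Trem1, and AVF-CKD 4, AVF-CKD 6 and sham 4 are high for Ngp, Camp and Ltf.

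AVF-CKD 3 was the highest library for 4 members (S100a8, S100a9, Cxcr2 and Trem1), AVF-CKD 4 for 3 (Csf3r, Ltf and Mmp8), AVF-CKD 6 for 2 (Ngp and Camp) and sham 6 for 1 (Retnlg). Sham 1 was the lowest library for 5 members (S100a8, Csf3r, Mmp8, Cxcr2 and Trem1). The 10 members together summed to 129 to 440 CPM in AVF-CKD and 122 to 325 CPM in sham, and the lowest library of each group, AVF-CKD 5 and sham 1, held nearly the same amount. Red cell markers stood at opposite ends in these 2 libraries: the 8 erythroid markers summed to 6093 CPM in AVF-CKD 5, the highest of its group, and to 1145 CPM in sham 1, the lowest of all 12. The part of blood left in the vessel in the members' levels was not tested.

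Several members had fold changes of opposite sign in title numbers 1 to 3 and 4 to 6. The labels do not call these sets batches, and the split was taken up because earlier results of these data had shown it, so what follows is a description and no independent support for it. Within numbers 1 to 3, S100a8 was at 59.6 to 108 CPM in AVF-CKD and 22.9 to 51.3 CPM in sham, and within numbers 4 to 6 at 24 to 65.5 CPM in AVF-CKD and 48.2 to 77.9 CPM in sham. S100a9 was at 79.5 to 171 CPM in AVF-CKD and 41.4 to 73.7 CPM in sham within numbers 1 to 3, and at 39.8 to 79.8 CPM in AVF-CKD and 81.1 to 132 CPM in sham within numbers 4 to 6. For S100a9 the groups thus lay apart in both sets, in opposite directions. Of the 8 tested members, 6 had every AVF-CKD library above every sham library within numbers 1 to 3, against 8.55% of all tested genes. They were S100a8, S100a9, Csf3r, Mmp8, Cxcr2 and Trem1, and the untested Camp did so too. The 6 tested genes followed each other across libraries (r 0.58 to 0.97 between pairs), and sham 1 was lowest for 5 of them. They are thus not 6 separate observations. Within numbers 4 to 6, 2 of the 8 had every AVF-CKD library below every sham library (S100a9 and Retnlg), against 8.98%.

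In a fit with the set and its interaction with the group, the log2 fold changes within numbers 1 to 3 were 1.02 ± 0.39 for S100a8, 0.98 ± 0.33 for S100a9, 1.18 ± 0.39 for Cxcr2, 1.74 ± 0.56 for Trem1 and 0.24 ± 0.16 for Retnlg. Within numbers 4 to 6 they were -0.57 ± 0.39 for S100a8, -0.83 ± 0.33 for S100a9, -0.12 ± 0.38 for Cxcr2, 0.22 ± 0.55 for Trem1 and -1.05 ± 0.16 for Retnlg. The edgeR adjusted p of Retnlg there, 0.0845, was the lowest of any member in either set of this fit. Fitted on numbers 4 to 6 alone, Retnlg had the same log2 fold change of -1.05 with an edgeR adjusted p of 0.410. All 8 tested members had a log2 fold change above 0 within numbers 1 to 3, against 49.9% of all genes, and 4 of 8 within numbers 4 to 6, against 50%. The difference between the sets (4 to 6 minus 1 to 3) had an unadjusted p below 0.05 in 4 of 8 members, all 4 negative (S100a8, S100a9, Retnlg and Cxcr2), against 4.31% of all tested genes. It was -1.80 ± 0.47 for S100a9 and -1.28 ± 0.23 for Retnlg, both with an edgeR adjusted p of 0.474, and no member passed the test over all genes. Csf3r, Mmp8 and Ltf had differences of -0.33 ± 0.41, -0.71 ± 0.72 and 0.52 ± 1.49. Of the 4 low-Dbp libraries all are in numbers 4 to 6, so that set and Dbp level are not separate. They are sham 4, sham 5, sham 6 and AVF-CKD 6, while Dbp was at 77.7 CPM in AVF-CKD 4 and 99.6 CPM in AVF-CKD 5. Within numbers 4 to 6 the group difference thus cannot be fully told apart from Dbp level.

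**Figure D4:**
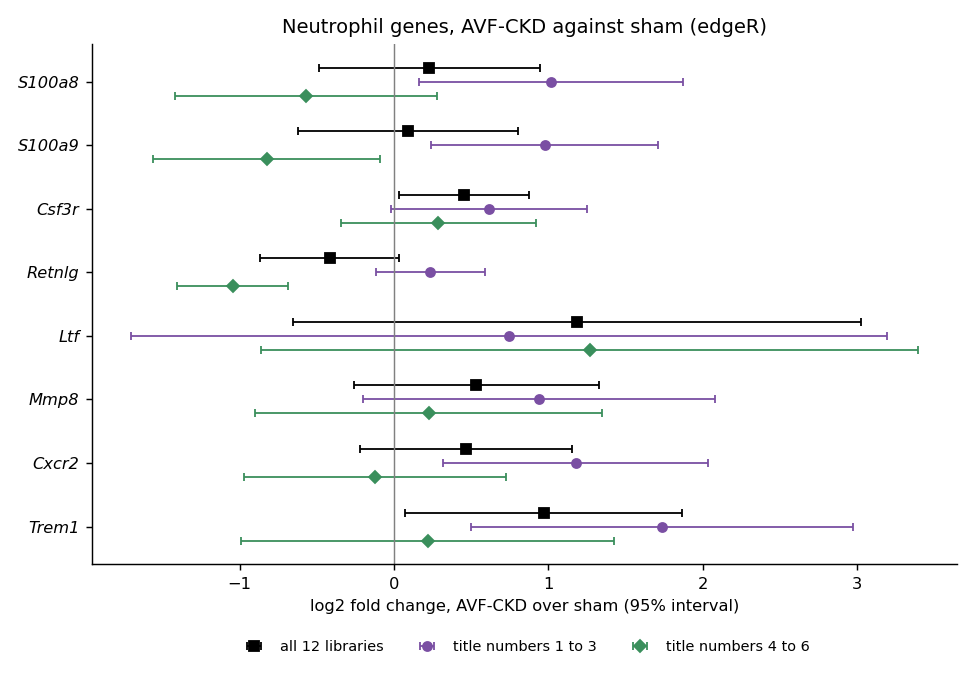
Log2 fold change of AVF-CKD over sham for the 8 tested members (rows) with 95% intervals, from all 12 libraries (black squares), from title numbers 1 to 3 (purple circles) and from title numbers 4 to 6 (green diamonds); the vertical line is no difference. S100a8, S100a9, Cxcr2 and Retnlg lie right of 0 for numbers 1 to 3 and left of 0 for numbers 4 to 6 (Cxcr2 at -0.12). Csf3r, Mmp8, Ltf and Trem1 lie right of 0 in both.

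The 5 tested genes outside the members whose log2 CPM followed the mean of the 8 tested members most closely over the 12 libraries were Il1f9, Gm5483, Cxcl2, Olfm4 and Mrgpra2a, with Pearson's r of 0.98, 0.96, 0.95, 0.94 and 0.93, given as a description of genes picked for their r among all tested genes. Il1f9 and Cxcl2 are also in the list of other mature neutrophil genes, Cxcl2 in that of recruitment genes and Olfm4 in that of granule proteins. Il1f9, which encodes interleukin-36 gamma, had 3.92, 13.9 and 29.1 CPM in AVF-CKD and 2.13, 9.21 and 16.2 CPM in sham (log2 fold change 0.71 ± 0.46, edgeR adjusted p = 0.659). Cxcl2 had 10.9, 40.3 and 90.3 CPM in AVF-CKD and 8.34, 28.2 and 40.4 CPM in sham (log2 fold change 0.74 ± 0.43, edgeR adjusted p = 0.616). Olfm4, a granule protein of a subset of neutrophils, was near its detection limit at 0.0454 to 0.677 CPM in AVF-CKD and 0.0335 to 0.665 CPM in sham. Gm5483 averaged 4.39 ± 2.14 CPM in AVF-CKD and 2.68 ± 1.40 CPM in sham, and Mrgpra2a, a Mas-related receptor gene, 1.04 ± 0.655 CPM in AVF-CKD and 0.684 ± 0.26 CPM in sham. Both belong to families with near-identical copies, so their counts are uncertain. The r of all 5 was 0.935 or more within AVF-CKD and 0.887 or more within sham.

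In the lists of other neutrophil and recruitment genes, edgeR and limma voom called 0 genes, while DESeq2 called Mmp9, 1 of 16 granule proteins, and Ltb4r1 and Cxcl12, 2 of 20 recruitment genes, against 0.559% of all genes. Of the 16 other granule proteins all were tested; 12 had a log2 fold change above 0 (against 49.1% of all tested genes), and 5 were higher at an unadjusted p below 0.05 (against 5.26% of all). The most abundant, Lyz2, lysozyme, which macrophages also make, averaged 6551 ± 1724 CPM in AVF-CKD and 5709 ± 1677 CPM in sham, and Hp, haptoglobin, 473 ± 124 CPM in AVF-CKD and 610 ± 346 CPM in sham. Chosen after their values were seen, Mmp9, gelatinase B, averaged 53.3 ± 27.3 CPM in AVF-CKD and 16.8 ± 4.87 CPM in sham (log2 fold change 1.67 ± 0.35, edgeR adjusted p = 0.368), and Lcn2, the iron-siderophore carrier lipocalin 2, 32.4 ± 20.6 CPM in AVF-CKD and 13.5 ± 6.18 CPM in sham (1.26 ± 0.38, edgeR adjusted p = 0.401). In both, 5 of the 6 AVF-CKD libraries lay above the highest sham library; that was so for 3 libraries in Mmp8 and 2 in Ltf. Other cells of a vein wall also make both proteins.

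Of 28 other genes of mature neutrophils, 23 were tested, 20 had a log2 fold change above 0 (against 49.1% of all tested genes) and 5 of them an unadjusted p below 0.05 (against 5.26% of all), with a median of 0.52 over the 23. The most abundant were Pirb, an inhibitory receptor of myeloid cells, at 176 ± 45.5 CPM in AVF-CKD and 137 ± 42.9 CPM in sham, and Alox5ap, which is needed for leukotriene synthesis, at 140.5 ± 37.8 CPM in AVF-CKD and 122 ± 33.5 CPM in sham. Of 21 recruitment genes, 20 were tested, 14 had a log2 fold change above 0 (against 49.1% of all tested genes) and 6 were higher at an unadjusted p below 0.05 (against 5.26% of all), with a median of 0.39. Cxcl12, the chemokine that holds neutrophils in the marrow, averaged 407 ± 129 CPM in AVF-CKD and 238 ± 44.3 CPM in sham (log2 fold change 0.77 ± 0.20, edgeR adjusted p = 0.390; DESeq2 adjusted p = 0.0336). Itgb2, the beta chain of the leukocyte integrins, averaged 294 ± 66.6 CPM in AVF-CKD and 216 ± 47.7 CPM in sham (log2 fold change 0.44 ± 0.18, edgeR adjusted p = 0.496). Ltb4r1, the leukotriene B4 receptor, was named after its values were seen. It had all 6 AVF-CKD libraries, at 6.52 to 9.93 CPM, above all 6 sham libraries, at 3.60 to 5.54 CPM (log2 fold change 0.67 ± 0.14, edgeR adjusted p = 0.368). The groups lay wholly apart, in either direction, in 0.638% of all tested genes.

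Genes of granule precursors showed little signal in either group. Of the 7, 4 were tested and all 4 had a log2 fold change above 0 (against 49.1% of all tested genes), 1 of them with an unadjusted p below 0.05 (against 5.26% of all). Prtn3, proteinase 3, averaged 1.38 ± 0.68 CPM in AVF-CKD and 1.34 ± 0.519 CPM in sham, and Gfi1, a repressor needed for granulocyte development, 0.708 ± 0.184 CPM in AVF-CKD and 0.569 ± 0.265 CPM in sham. Mpo, myeloperoxidase, named after its values were seen, was at 0.227 to 1.34 CPM in AVF-CKD and 0.255 to 0.669 CPM in sham.

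Markers of other cells and tissues had the following levels. The monocyte and macrophage list had 10 of 16 genes with a log2 fold change above 0 (against 49.1% of all tested genes) and a median of 0.14. C1qb, a complement component of macrophages, was at 794 ± 208.5 CPM in AVF-CKD and 802 ± 279 CPM in sham. The summed level of this list was lowest in AVF-CKD 5 within its group, at 7415 CPM. Among sham libraries it was lowest in sham 6 (6723 CPM) and next in sham 1 (7458 CPM). Within their groups, AVF-CKD 5 and sham 1 were also the lowest libraries for the lists of other granule proteins and of recruitment genes. Lyz2, at a mean of 6551 CPM in AVF-CKD and 5709 CPM in sham, is in the macrophage and the granule protein lists. It makes up much of both sums, so they are not separate observations. In the recruitment list, which does not hold Lyz2, AVF-CKD 5 and AVF-CKD 6 were close (1183 and 1184 CPM). Whether the low levels of AVF-CKD 5 and sham 1 were particular to mature neutrophil genes was not tested. All 7 tested erythroid genes had a log2 fold change above 0 (against 49.1% of all tested genes), with a median of 0.36. The summed level of the erythroid list was 3186 to 6093 CPM in AVF-CKD and 1145 to 5507 CPM in sham. All 7 fat genes and 7 of 8 vein wall genes had a log2 fold change below 0, with medians of -0.91 and -0.22, while 49.1% of all tested genes were above 0. At an unadjusted p below 0.05 in edgeR, 5 of the 7 fat genes and 2 of the 8 vein wall genes were lower, against 4.08% of all. DESeq2 called 2 of the 7 fat genes, Adipoq and Retn, against 0.559% of all genes. Their edgeR log2 fold changes were -1.18 ± 0.32 and -1.53 ± 0.40 (edgeR adjusted p = 0.390 for each). Fat markers summed to 773 to 1566 CPM in AVF-CKD and 978 to 4267 CPM in sham, skeletal muscle markers to 866 to 12260 CPM in AVF-CKD and 483 to 13170 CPM in sham. Platelet, eosinophil, mast cell and keratinocyte lists had medians of -0.13, 0.13, -0.31 and -0.32, and gland epithelium, highest in sham 6, -1.02. The part of any of these tissues in the members' differences was not tested.

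**Figure D5:**
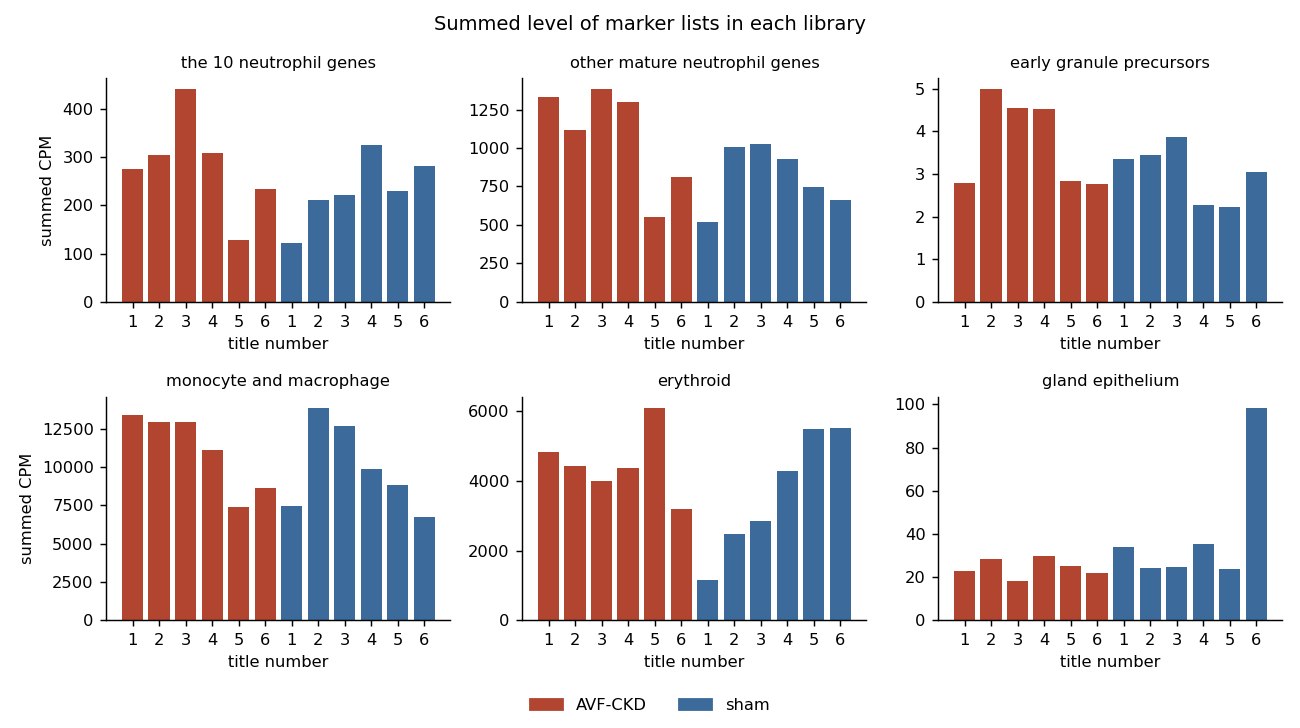
Summed CPM of 6 gene lists (vertical axes, from 0), with 1 bar per library and its title number below, AVF-CKD left and sham right in each panel. The groups overlap in every panel, and sham 1 has the lowest erythroid level (1145 CPM). AVF-CKD 5 and sham 1 are low for both lists of mature neutrophil genes and, with sham 6, for monocyte and macrophage markers.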

How the data were processed

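Venous RNA of 6 AVF-CKD and 6 sham mouse samples was sequenced on an Illumina instrument from TruSeq libraries, per the labels' protocols. The submitters' processing notes name GRCm38, TopHat2 2.1.0, featureCounts and edgeR, with no role given. The annotation and strand setting were not given in the sources used here. For each gene and library the deposited table holds whole-number counts, used as deposited, an RPKM value and a gene length that the authors gave as another column. RPKM, as deposited, is the count divided by that length and by a library total 1.15 to 1.19 times the sum of counts (a relation found by division); it was used for levels between genes and not for tests. No other series' per-sample columns were found.

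The 10 members and all gene lists were chosen with earlier results of these data known. All members matched 1 row each, and no annotated exon of another gene overlapped theirs (0%). Counts were filtered with filterByExpr by group (18965 of 43346 genes kept), given TMM factors and fitted in edgeR 4.0.16 (R 4.3.3) by its quasi-likelihood method, with group as the single term, Benjamini-Hochberg adjustment over all tested genes and a threshold of 0.05. The lowest adjusted p of any gene was 0.246. CPM uses TMM-scaled totals, and log2 CPM a prior count of 2. SE is the fold change divided by the square root of its F. Permutation tests are two-sided, with 100000 resamples (scipy 1.17.1). Fits were tested on simulated data. All 66 pairs of libraries differed by more than counting noise (lowest chi-square over its degrees of freedom, 47.8). Deviations of same-numbered libraries correlated unevenly (r -0.11 to 0.28, above 0.1 in numbers 2, 3 and 6), and the labels name nothing shared, so the numbers were not used to pair samples.

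Named were all members, per list the 2 genes with the highest mean CPM, genes that passed the test, and the 5 tested genes with the highest r with the members' mean z-score; Ly6g, Mpo, Mmp9, Lcn2, Csf3, Ltb4r1, Dbp and the ligands of Cxcr2 were added after values were seen. Most genes of the lists of other tissues are given as sums. Lilrb4a was matched to no row. Alternatives were 2 other scalings, 2 other filters, DESeq2 1.42.0, limma 3.58.1 voom, title number as a block or its set as a term, subsets of libraries, and each library left out; the last 2 with no filter, for Ngp and Camp, were added after values were seen. Promoters are RefSeq's on GRCm38.p6.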

Additional observations from a re-analysis of the deposited data

Results flagged for a closer look

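Within a group of 6, a library was picked out where its distance to the nearest other library, as a share of the group's range, was above 0.625, Dixon's critical value. This was so in 7 of the 74 gene and group pairs examined, and chance picks out about 1 in 20. Among the members, Ngp stood at 2.54 CPM in AVF-CKD 6 (the other 5 AVF-CKD libraries were at 0.0196 to 0.47 CPM) and at 0.765 CPM in sham 4 (the other 5 sham libraries, 0 to 0.115 CPM). Camp stood at 0.463 CPM in sham 4 (others 0 to 0.13 CPM). These are 131, 33 and 20 counts. Outside the members, Hp was at 719.5 CPM in AVF-CKD 4 (others 383.8 to 466 CPM). Amy1, a salivary amylase, was at 45.8 CPM in sham 6 (others 14.7 to 25.6 CPM), and Fabp4, a fat cell gene, at 1514 CPM in the same library (others 389.5 to 734 CPM). Myh4, a fast muscle myosin, was at 3525 CPM in sham 4 (others 55.4 to 1240 CPM).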

How the results depend on the processing

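Over 23 other settings, 175 of 183 values of the members' group effect kept their direction, 8 took the other sign and 0 passed the threshold (adjusted p 0.299 to 0.991). With title numbers 4 to 6 alone, 4 in place of 7 of the 8 tested members had a log2 fold change above 0, and S100a8 was at -0.57, S100a9 at -0.83 and Cxcr2 at -0.12. With numbers 1 to 3 alone Retnlg was at 0.24, and without sham 4, 5 and 6 and AVF-CKD 6 at 0.039. Leaving out each library in turn gave -0.014 to 0.39 for S100a8, -0.19 to 0.26 for S100a9 (-0.05 without sham 1), 0.36 to 0.59 for Csf3r, -0.53 to -0.26 for Retnlg, 0.57 to 1.89 for Ltf, 0.34 to 0.71 for Mmp8, 0.26 to 0.61 for Cxcr2 and 0.60 to 1.13 for Trem1. Of the 112 values of the difference between the sets, 109 kept their direction; that of Ltf ran from -0.048 (without AVF-CKD 4) to 1.40 and was -0.027 without sham 3 and -0.030 without sham 5. The cause of these changes was not tested. With the title number as a replicate block, 0 members were called and 7 of 8 stayed above 0 (S100a8 0.19, S100a9 0.04, Csf3r 0.43, Retnlg -0.40, Ltf 1.04, Mmp8 0.50, Cxcr2 0.48, Trem1 0.98); same-numbered libraries deviated together in some numbers and not in others (r -0.11 to 0.28), and of the sham libraries only sham 3 correlated best with its own number. Ngp and Camp, with 213 and 137 counts in all, are limited by depth; with no filter and a library left out they ran from 0.42 to 4.52 and from 0.91 to 2.23.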

Other observations

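Ratios of 2 members within a library do not depend on library scaling. All 28 log2 count ratios among the 8 tested members were compared between the groups by a two-sided exact permutation test over 924 assignments (smallest possible p = 0.00216), an examination chosen after the values were seen. None had an adjusted p below 0.05 over the 28 ratios (lowest 0.131). The lowest p was that of S100a9 over Trem1, at 2.91 ± 0.283 in AVF-CKD and 3.82 ± 0.578 in sham (log2, SD, n = 6 each), a difference of -0.92 (exact permutation p = 0.00649, adjusted p = 0.131). It was -0.83 among libraries numbered 1 to 3 and -1.01 among those numbered 4 to 6, where S100a9 itself had opposite directions. S100a8 over Trem1 differed by -0.77 (exact p = 0.013, adjusted p = 0.131), -0.73 within numbers 1 to 3 and -0.81 within numbers 4 to 6. Csf3r over Retnlg differed by 0.83 (exact p = 0.0173, adjusted p = 0.131), 0.43 and 1.23 in these sets. Retnlg over Trem1 differed by -1.37 (exact p = 0.0195, adjusted p = 0.131), -1.55 within numbers 1 to 3 and -1.18 within numbers 4 to 6. Retnlg over Cxcr2 differed by -0.87 (exact p = 0.0238, adjusted p = 0.131), -0.94 and -0.81 in these sets. Retnlg over Mmp8 differed by -0.90 (exact p = 0.0433, adjusted p = 0.152), -0.81 and -0.99 in these sets. Every ratio between Retnlg and another tested member kept its direction in both sets. Ratios that share a member are not independent of each other. Mmp8 and Cxcr2 over Trem1 were below 0 in both sets (-0.74 and -0.20 for Mmp8, -0.61 and -0.37 for Cxcr2). The other 2 ratios to Trem1 did not keep 1 direction: Csf3r over Trem1 differed by -0.54 (exact p = 0.199, adjusted p = 0.335), -1.12 within numbers 1 to 3 and 0.04 within numbers 4 to 6, and Ltf over Trem1 by 0.02 (exact p = 0.985, adjusted p = 0.985), -1.12 within numbers 1 to 3 and 1.17 within numbers 4 to 6.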
